A study of Mus musculus with 15 samples.

Results

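Krüppel-like factors (KLFs) are zinc finger transcription factors that bind GC-rich and CACCC-type DNA elements. They act as activators or repressors through coactivators such as p300 and corepressors such as CtBP and Sin3A, and several of their genes respond early to growth factors, stress or shear. The genes proposed here were Klf2, Klf4, Klf6 and Klf10, chosen by name from the family with earlier results of these data known. Of these 4 genes, 3 were found among the 8059 genes of the deposited bulk table, Klf4, Klf6 and Klf10, and Klf2 was not analysed here. Klf4 is a pluripotency factor that also restrains proliferation in many tissues. Klf6 is a broadly expressed factor linked to injury responses, and Klf10, also called TIEG1, is an early gene of the TGF-beta pathway.

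RNA came from mouse skeletal muscle stem cells (satellite cells, which rebuild fibres after injury) in bulk, at time points labelled T0, T15, T30, T60, T90 and T120. The labels give no time unit. T0 is intact muscle, the other times are muscle taken apart with collagenase and dispase, and all 6 groups are labelled as PFA-fixed. T30 and T90 had 3 libraries each and the other 4 groups 4 each, lettered A to D in the table. For the bulk cells, the sources used here do not give strain, genotype, sex, age or sorting. Nothing says that the libraries came from separate animals, so p-values measure only the spread between libraries, which may be technical.

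Summed over listed genes, libraries held 2974294 to 10482407 counts at T0 to T30 and 8647622 to 27826437 counts at T60 to T120. All 10 satellite cell markers were listed, with levels in CPM (counts scaled to library size). At T120 3 of them were called higher and 5 lower than T0, where 37.3% of all genes were called higher and 39.5% lower. Sdc4 averaged 2528 ± 336 CPM at T120, against 421 ± 54.1 CPM at T0, while Pax7, which defines these cells, averaged 377 ± 80.8 CPM at T120, against 1344 ± 203 CPM at T0 (SD, n = 4 each), and fell by 1.83 on the log2 scale (edgeR adjusted p = 2.54e-09). Spry1, a quiescence marker, fell by 1.70 (edgeR adjusted p = 3.78e-07). The part of these changes in the members' levels was not tested. Of 28 long genes with no known role in these cells, 7 were listed, and edgeR called all 7 lower at T60 than at T0. Only genes with a mean normalized count of at least 98.4 are listed, so these 7 may hold more reads than the 28 do. Reads over the 7 gave a background density per kilobase (kb) of exon, which may therefore be too high. It averaged 2.30 ± 0.951, 1.58 ± 1.51 and 4.28 ± 2.43 CPM per kb at T0, T15 and T30, and 0.131 ± 0.0319, 0.257 ± 0.215 and 0.407 ± 0.482 CPM per kb at T60, T90 and T120 (SD). Levels were scaled with TMM factors, which take most genes as unchanged. With total counts as the only scaling, the median log2 fold change of all genes against T0 was -0.35 at T60 and -0.46 at T90 and at T120, where TMM gave -0.03, -0.05 and -0.08. That scaling called 1320 genes higher and 4022 lower at T60 against T0, where TMM called 2252 and 2280. At T90 it called 1773 higher and 4194 lower, where TMM called 2727 and 2819. At T120 it called 2072 higher and 4218 lower, where TMM called 3002 and 3184. For T60 over T30 it called 1034 higher and 3661 lower, where TMM called 2137 and 1973, for T30 over T15 it called 334 and 65 where TMM called 255 and 139, and for T90 over T60 it called 1004 and 1306 where TMM called 1347 and 1093.

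In GRCm38 (mm10), Klf4 (ENSMUSG00000003032) lies on the minus strand at chr4:55527143-55532466 with 3049 bases of merged exons. Klf6 (ENSMUSG00000000078) lies on the plus strand at chr13:5861482-5870394 with 4391 exon bases. Klf10 (ENSMUSG00000037465) lies on the minus strand at chr15:38291463-38300706 with 4179 exon bases. GENCODE vM21 annotates 0 other genes overlapping any of them. Counts are per gene, so exons and untranslated regions were not separated.

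Klf4 and Klf6 rose together, so the 250 bases before their RefSeq starts (GRCm38.p6, 5′ to 3′ in the gene's direction) are shown for comparison. RefSeq windows matched 2 of the 3 genes, with Klf10 unmatched. The Klf4 window is chr4:55532476-55532725 on the minus strand and the Klf6 window is chr13:5861239-5861488 on the plus strand. Capitals mark matches, on either strand, to the CRE core TGACG, the EGR element GCGNGGGCG and the E-box CACGTG.
Klf4: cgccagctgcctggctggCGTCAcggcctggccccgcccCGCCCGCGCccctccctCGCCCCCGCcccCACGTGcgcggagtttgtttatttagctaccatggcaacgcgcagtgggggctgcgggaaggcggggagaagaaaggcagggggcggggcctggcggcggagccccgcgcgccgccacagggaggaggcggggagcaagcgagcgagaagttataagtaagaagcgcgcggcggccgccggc
Klf6: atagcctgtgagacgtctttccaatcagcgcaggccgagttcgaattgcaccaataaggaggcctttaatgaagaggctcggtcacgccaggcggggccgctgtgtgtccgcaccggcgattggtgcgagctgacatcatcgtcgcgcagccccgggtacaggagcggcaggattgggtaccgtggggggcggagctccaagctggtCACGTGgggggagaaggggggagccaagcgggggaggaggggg
The windows hold 74.0% G and C for Klf4 and 64.8% for Klf6, against a median of 52.4% over 32851 promoter windows of the same length. Both windows hold the E-box, at position -182 in Klf4 and -43 in Klf6, counted from the start site, as do 6.02% of all windows. The Klf4 window alone of this pair holds the CRE core, at -232, and EGR elements at -211 and -194, against 17.8% and 4.7% of all windows. GC boxes (GGGCGG, found in 32.7% of windows) occurred 4 times in Klf4, 2 of them overlapping an EGR element, and 1 time in Klf6. Neither window matched the full CRE TGACGTCA (1.55% of windows), AP-1 TGANTCA (6.75%), CACCC (52%) or TATAAA (12.4%). The CArG box (1.47%), MEF2 box (0.508%) and NF-kB element (3.9%) also had no match in either window. A match is only a run of letters, and no binding was measured.

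Klf4 was the member that changed most. It had 14.7, 17.9, 30.4 and 19.96 CPM in libraries A to D at T0, 159.8, 88.8, 171 and 72.9 CPM at T15, and 250.2, 181 and 193 CPM at T30. It had 802, 558, 494 and 404 CPM at T60, 549, 493 and 561 CPM at T90, and 570.2, 242, 359 and 192 CPM at T120. Every library from T15 on lay above every T0 library. The T15, T30 and T60 groups did not overlap each other, whereas the T120 libraries spread from the T30 range into the T60 range, with library A highest. At T15 Klf4 averaged 123 ± 49.5 CPM, against 20.7 ± 6.82 CPM at T0 (SD, n = 4 each), a 6.02-fold rise with a log2 fold change of 2.59 ± 0.34 (SE; edgeR quasi-likelihood test with Benjamini-Hochberg adjustment over 8059 genes, adjusted p = 6.37e-05). Against T0 the edgeR log2 fold change was 3.34 ± 0.36 at T30 (adjusted p = 1.42e-06), 4.78 ± 0.36 at T60 (adjusted p = 9.03e-10), 4.70 ± 0.37 at T90 (adjusted p = 8.02e-10) and 4.06 ± 0.35 at T120 (adjusted p = 1.86e-09). Those are rises of 10.1-fold, 27.6-fold, 26.1-fold and 16.6-fold. Among all 8059 genes, ordered from the largest rise, Klf4 stood between ranks 21 and 23 from T15 to T90 and at rank 37 at T120.

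Klf6 started higher than Klf4 and rose more gradually. It had 53.6, 87.3, 52.2 and 68.2 CPM in libraries A to D at T0, 162, 108, 109 and 96.0 CPM at T15, and 133, 119.9 and 175 CPM at T30. It had 325, 249, 314 and 259 CPM at T60, 361, 271 and 340.4 CPM at T90, and 458, 312, 439.7 and 349 CPM at T120. The lowest library of any later time was above the highest T0 library, T15 and T30 overlapped, and T60, T90 and T120 each overlapped the next. At T15 Klf6 averaged 119 ± 29.4 CPM, against 65.3 ± 16.3 CPM at T0 (SD, n = 4 each), a 1.81-fold rise with an edgeR log2 fold change of 0.86 ± 0.19 (adjusted p = 0.031). The T15 call was lost when T0 library A (adjusted p = 0.181), T0 library C (0.161), T0 library D (0.077) or T15 library A (0.179) was left out of the edgeR fit, and the fold changes then lay between 0.66 and 0.87. Later edgeR log2 fold changes against T0 were 1.13 ± 0.20 at T30 (adjusted p = 0.00107), 2.13 ± 0.19 at T60 (adjusted p = 1.23e-08), 2.30 ± 0.20 at T90 (adjusted p = 3.88e-09) and 2.57 ± 0.20 at T120 (adjusted p = 2.69e-10). The rise at T120 was 5.94-fold. Klf6 stood at rank 59 of all genes by rise at T15 and at rank 201 at T120.

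Klf10 was called higher than T0 at 0 of the 5 later times by edgeR. It had 85.1, 58.8, 24.6 and 44.3 CPM in libraries A to D at T0, 56.6, 45.8, 29.5 and 78.3 CPM at T15, and 45.4, 62.6 and 53.6 CPM at T30. It had 58.6, 71.0, 68.5 and 47.5 CPM at T60, 31.4, 55.7 and 48.2 CPM at T90, and 32.7, 30.6, 35.4 and 25.9 CPM at T120. The groups overlapped widely up to T90, the T0 and T15 libraries were the most spread, and at T120 all 4 libraries were low, although above T0 library C. The edgeR log2 fold change against T0 was -0.03 ± 0.29 at T15 (adjusted p = 0.999), 0.01 ± 0.31 at T30 (adjusted p = 0.987), 0.20 ± 0.29 at T60 (adjusted p = 0.574) and -0.24 ± 0.31 at T90 (adjusted p = 0.505). The T60 value was -0.11 with total counts as the only scaling. At T120 Klf10 averaged 31.1 ± 4.02 CPM, against 53.2 ± 25.5 CPM at T0 (SD, n = 4 each), and fell by 0.78 on the log2 scale (SE 0.29, edgeR adjusted p = 0.0202). That call was lost without T0 library A (log2 fold change -0.46, adjusted p = 0.148), without T0 library B (-0.70, 0.0517) or without T120 library D (-0.67, 0.0667), and after background subtraction (-0.88, 0.0744).

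**Figure D1:**
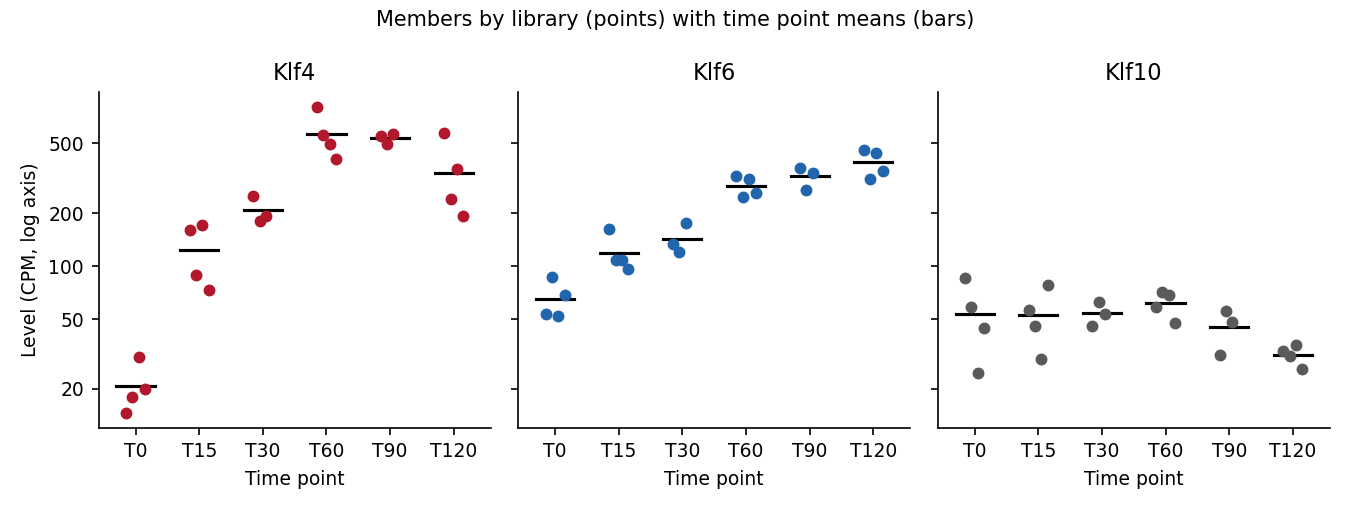
Level of Klf4, Klf6 and Klf10 in CPM (log axis) in each of the 22 libraries by time point. Points are libraries and bars are time point means, which for Klf4 run from 20.7 CPM at T0 to 565 CPM at T60 and for Klf10 stay between 31.1 and 61.4 CPM.

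Counts of called members are given beside the share of all genes called. The members were chosen with earlier results of these data known, so this comparison is no test of them. At T15, 2 of the 3 members were called higher than T0 and 0 lower, where 0.658% of all genes were called higher and 0.0124% lower. At T30, 2 of 3 were higher, where 3.64% of all genes were higher and 1.3% lower. From T60 on calls were common: 27.9% of genes were higher and 28.3% lower at T60, 33.8% and 35% at T90, and 37.3% and 39.5% at T120. At T60 and T90 2 of the 3 members were called higher, and at T120 2 were higher and 1 lower. In bulk RNA, a different number of cells of a type and a different amount of RNA per cell cannot be told apart. All 5 comparisons share the T0 libraries. Without the 5 libraries of highest background density (T0 A and C, T15 D, T30 A and B), 1 of 3 members, Klf4, was called higher at T15, because Klf6 then had a log2 fold change of 0.72 (edgeR adjusted p = 0.386). In the joint edgeR test of change at any time, 85.7% of genes were called, Klf6 and Klf4 had adjusted p = 6.2e-10 and 1.85e-09, and Klf10 had adjusted p = 0.0646.

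**Figure D2:**
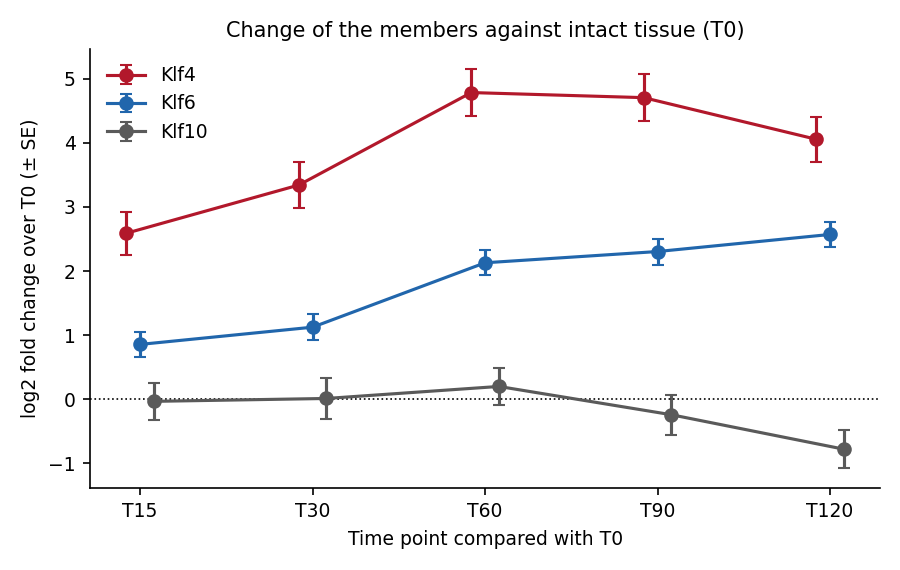
Log2 fold change over T0 with its standard error (edgeR) for Klf4, Klf6 and Klf10 at the 5 later time points. Klf4 is highest at T60 (4.78), Klf6 is highest at T120 (2.57), and Klf10 lies near 0 until it reaches -0.78 at T120.

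Of the steps between neighbouring times from T15 on, which do not use the T0 libraries, that from T30 to T60 was the largest for Klf4 and Klf6 in the counts as deposited. The change from T0 to T15 was larger for Klf4 (2.59). Klf10 moved by 0.19 from T30 to T60 (edgeR adjusted p = 0.637), and most from T90 to T120 (-0.54). The label numbers of T30 and T60 lie further apart than those of T15 and T30, and rates were not compared. Klf4 rose by 1.44 ± 0.34 on the log2 scale from T30 to T60 (edgeR adjusted p = 0.00158) and Klf6 by 1.00 ± 0.20 (edgeR adjusted p = 0.000417). In that step 2 of 3 members were called higher, where 26.5% of all genes were called higher and 24.5% lower. Background density was 0.131 CPM per kb at T60, against 4.28 CPM per kb at T30. With that background subtracted and the libraries scaled anew, the Klf4 step was 0.58 (edgeR adjusted p = 0.261) and the Klf6 step 0.37 (edgeR adjusted p = 0.137), so neither passed. The median step of all genes was then 0.19, where the counts as deposited gave 0.01. How much of the smaller member steps came from the new scaling was not tested. Without the 5 libraries of highest background the steps were 1.54 for Klf4 (edgeR adjusted p = 0.0412) and 0.70 for Klf6 (edgeR adjusted p = 0.0744).

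The other neighbouring steps gave no member call. From T15 to T30, Klf4 moved by 0.75 ± 0.33 (edgeR adjusted p = 0.173) and Klf6 by 0.27 ± 0.20 (edgeR adjusted p = 0.426), where 3.16% of all genes were called higher and 1.72% lower. Here 0 members were called by edgeR, DESeq2 and limma-voom, and 1, Klf4, had an unadjusted edgeR p under 0.05. With background subtracted, both passed, at 1.46 for Klf4 (edgeR adjusted p = 0.0308) and 0.74 for Klf6 (edgeR adjusted p = 0.0224). The median step of all genes was then -0.11, against -0.02 before subtraction, and the part of the new scaling was not tested. From T60 to T90 the log2 changes were -0.08 for Klf4, 0.18 for Klf6 and -0.44 for Klf10, where 16.7% of genes were called higher and 13.6% lower. From T90 to T120 they were -0.65 for Klf4, 0.27 for Klf6 and -0.54 for Klf10, where 9.06% of genes were called higher and 13.9% lower. In both of these steps 0 members were called by edgeR, DESeq2 and limma-voom, and 0 had an unadjusted edgeR p under 0.05. Without T120 library A, Klf4 fell by 0.97 on the log2 scale between T90 and T120 (edgeR adjusted p = 0.0293).

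Between T60 and T120 the 3 members went different ways. At T120 Klf10 had a log2 fold change of -0.98 ± 0.29 against T60 (edgeR adjusted p = 0.00611, and 0.0728 at -0.96 with background subtracted), and its T120 libraries all lay below its T60 libraries. Klf4 had -0.73 ± 0.30 (edgeR adjusted p = 0.0444) with overlapping libraries. Klf6 had 0.44 ± 0.18 (edgeR adjusted p = 0.0431), also with overlapping libraries. By edgeR that is 1 member higher and 2 lower, where 28.4% of all genes were called higher and 32% lower. DESeq2 called 1 higher and 1 lower, and limma-voom 0 higher and 1 lower. The Klf4 call was lost without T60 library A (adjusted p = 0.179), B (0.0691) or C (0.0527), or T120 library B (0.128), C (0.0657) or D (0.154), and the Klf6 call without T60 library B (0.103) or D (0.0803), or T120 library A (0.0931) or C (0.11), all by edgeR. The log2 fold changes without 1 library ran from -1.06 to -0.50 for Klf4, from 0.38 to 0.54 for Klf6 and from -1.06 to -0.88 for Klf10.

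Ratios of 2 members within a library do not depend on scaling between libraries. The log2 ratio of Klf4 to Klf6 counts averaged -0.01 ± 0.47 at T15, against -1.67 ± 0.64 at T0 (SD, n = 4 each), a difference of 1.66. It averaged -0.30 ± 0.48 at T120, against 0.94 ± 0.34 at T60, a difference of -1.24. In both of these contrasts the groups did not overlap. The Klf4 to Klf10 ratio averaged 3.17 ± 0.41 at T60, against 1.22 ± 1.10 at T15, a difference of 1.95. The Klf6 to Klf10 ratio averaged 3.63 ± 0.21 at T120, against 2.23 ± 0.31 at T60, a difference of 1.403. Each of these 4 differences had p = 0.0286, the smallest that the exact two-sided permutation test allows with 4 libraries against 4, and an adjusted p = 0.0643 over the 9 ratio tests (3 pairs, 3 contrasts). None of the 9 passed 0.05 after adjustment, and the other 5 had exact permutation p-values from 0.0571 to 0.6.

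**Figure D3:**
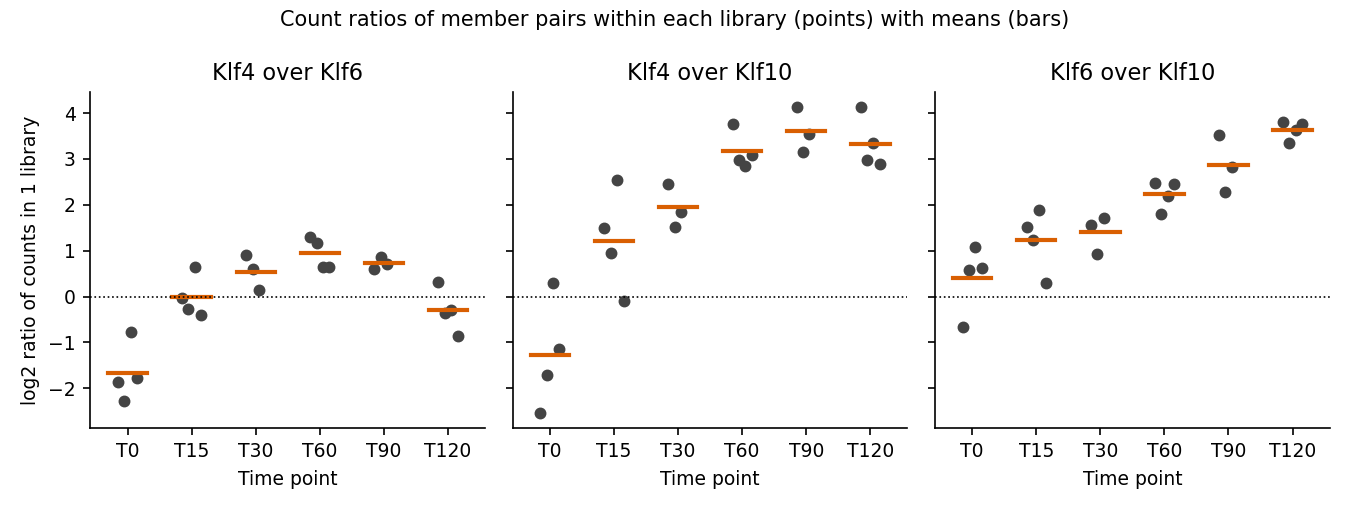
Log2 ratio of the counts of member pairs in each library by time point, with a prior count of 0.5. Points are libraries and bars are means, and the mean Klf4 to Klf6 ratio is -1.67 at T0, 0.94 at T60 and -0.30 at T120.

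Per kb of exon, Klf4 had the lowest mean of the members at T0 and the highest at T60. At T0 the levels were 14.9 ± 3.72 CPM per kb for Klf6, 12.7 ± 6.09 for Klf10 and 6.81 ± 2.24 for Klf4, and the libraries of Klf10 overlapped those of both other members. The Klf4 level at T0 stood above a background density of 2.30 CPM per kb. At T60 the levels were 185 ± 55.9 CPM per kb for Klf4, 65.3 ± 8.72 for Klf6 and 14.7 ± 2.56 for Klf10, with no overlap between members. At T120 they were 112 ± 55.2 for Klf4, 88.7 ± 16.0 for Klf6 and 7.45 ± 0.962 for Klf10, and Klf4 and Klf6 overlapped. Of the summed level of the 3 members per kb, Klf4 made up 20.9% ± 10.5 at T0, 49.2% ± 11.3 at T15 and 59.8% ± 6.15 at T30 (SD). Its share was 69.1% ± 4.87 at T60, 67.5% ± 0.793 at T90, then 51.8% ± 8.31 at T120. Klf10 made up 35.8% ± 13.8 at T0 and 3.79% ± 0.868 at T120. Among the 15 listed KLF and SP genes ranked by mean CPM per kb, Klf4 stood at rank 12 at T0, rank 2 at T15 and rank 1 from T30 on.

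The rest of the family was read from 8 other listed KLF genes (of 13) and 4 listed genes of the sister SP family (of 9). At T15, 0 of these 8 KLF genes and 0 of the 4 SP genes were called by edgeR, DESeq2 or limma-voom, and 1 KLF gene, Klf9, and 0 SP genes had an unadjusted edgeR p under 0.05. At T30 1 KLF gene, Klf16, was called higher, where 3.64% of all genes were. At T60 5 KLF genes were higher and 2 lower, at T90 5 and 2, and at T120 3 and 3. The list medians were 0.59, 0.40 and 0.16 on the log2 scale beside -0.03, -0.05 and -0.08 for all genes. Of all genes, 27.9% were called higher and 28.3% lower at T60, 33.8% and 35% at T90, and 37.3% and 39.5% at T120. The KLF counts at T120 lay near those shares. Without the 5 libraries of highest background the KLF counts were 4 and 1 at T60, 4 and 2 at T90 and 3 and 1 at T120. SP genes were higher in 3, 2 and 2 of 4 cases at T60, T90 and T120 and lower in 0, and without those 5 libraries higher in 1, 2 and 2. With total counts as the only scaling 1 SP gene was higher and 0 lower at T60, and the split turned at T90 (1 higher and 2 lower) and at T120 (0 and 2). The lower genes at T120 were Sp2 (-0.64) and Sp3 (-0.36). With that scaling the KLF counts were 4 and 2, 3 and 3, and 3 and 3.

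Klf16, a repressor gene of the Sin3A-binding branch, rose most of these, with log2 fold changes against T0 of 1.76 ± 0.25 at T30, 3.85 ± 0.23 at T60 and 3.59 ± 0.23 at T120 (edgeR adjusted p = 6.56e-05, 2.55e-11 and 2.24e-11). Its T0 level of 1.73 ± 0.342 CPM per kb was below the background density there. Its own signal at T0 can therefore not be told from background, and those fold changes have no firm size. Klf5, a factor tied to proliferation in many tissues, rose by 1.498 at T60 and 2.78 at T120 (edgeR adjusted p = 0.000194 and 3.52e-08), from a T0 level of 1.94 ± 0.232 CPM per kb that was likewise below the background density. Klf9, a glucocorticoid-responsive gene, was the most abundant of the 15 per kb at T0, with 37.4 ± 10.6 CPM per kb, and rose by 1.62 at T60 and 1.23 at T120 (edgeR adjusted p = 1.84e-06 and 1.77e-05). Klf15, which controls fuel use in muscle and is also glucocorticoid-responsive, went the other way. It averaged 9.87 ± 4.18 CPM at T60, against 48.4 ± 17.0 CPM at T0 (SD, n = 4 each), with log2 fold changes of -2.30 at T60, -3.48 at T90 and -2.93 at T120 (edgeR adjusted p = 5.9e-06, 1.15e-07 and 1.18e-07). Of 8 muscle fibre markers 6 were listed, and their sum ran from 232 to 321 CPM at T60, against 470 to 690 CPM at T0. Of these 6, edgeR called 0 higher and 5 lower at T60, and 1 higher and 4 lower at T120. Of all genes 28.3% and 39.5% were called lower at those times. The part of muscle fibre RNA in the Klf15 levels was not tested.

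The other family genes changed less. Klf3, a CtBP-binding repressor, fell by 0.60 at T60, 1.12 at T90 and 0.79 at T120 on the log2 scale (edgeR adjusted p = 0.0111, 7.87e-05 and 0.000818). Its T60 call was lost without T0 library A (log2 fold change -0.45, adjusted p = 0.0624) and with background subtracted (-0.53, adjusted p = 0.0995). Without the 5 libraries of highest background Klf3 had -0.19 at T60 and -0.34 at T120, and neither passed (edgeR adjusted p = 0.406 and 0.089). Klf7 rose by 0.63 at T60 and 0.44 at T90 (edgeR adjusted p = 3.83e-05 and 0.00185), but its T90 value was 0.039 with total counts as the only scaling (adjusted p = 0.777). Klf13 rose by 0.55 at T60 and 0.36 at T90 (edgeR adjusted p = 0.00272 and 0.0431), but with total counts as the only scaling its T90 value was -0.03, and without T0 library A, C or D or T90 library B or C its T90 adjusted p ran from 0.0703 to 0.172. Its T60 call was lost with total counts only (0.24, adjusted p = 0.126) and without the 5 libraries of highest background (0.36, adjusted p = 0.0864). At T120 Klf13 had 0.15 (edgeR adjusted p = 0.342), and 0.33 without T0 library B (adjusted p = 0.0321). Klf11, the closest relative of Klf10, fell by 0.79 at T120 (edgeR adjusted p = 0.0225), a call lost without T0 library A or B or T120 library C or D (adjusted p from 0.0559 to 0.0926), and it had -0.45 with background subtracted (adjusted p = 0.571). Sp4 rose by 1.03 at T60 and 0.66 at T120 (edgeR adjusted p = 6.75e-05 and 0.00248), with 0.27 at T120 under total counts only (adjusted p = 0.139). Sp1 rose by 0.28 at T60 and Sp3 by 0.35 (edgeR adjusted p = 0.0169 and 0.0245). The Sp3 call was lost without T0 library A (adjusted p = 0.0969) or C (0.0517) or T60 library B (0.0538), and total counts as the only scaling gave Sp1 -0.05 and Sp3 0.027 at T60. With background subtracted Sp1 had 0.020 and Sp3 0.12 at T60 (adjusted p = 0.905 and 0.363). Sp2 had 0.26 at T60 (edgeR adjusted p = 0.107) and passed only without T60 library D, at 0.35 (adjusted p = 0.0467).

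**Figure D4:**
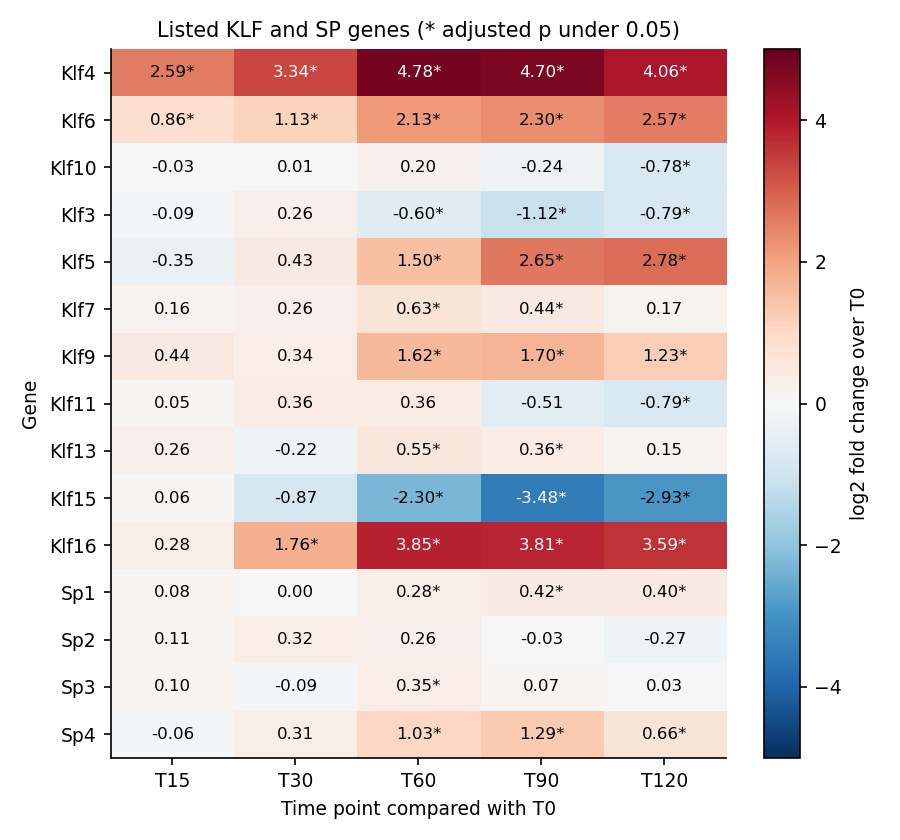
Log2 fold change over T0 of the 15 listed KLF and SP genes at the 5 later time points (edgeR), with an asterisk where the adjusted p is under 0.05. Only Klf4 and Klf6 carry an asterisk at T15, Klf16 joins at T30, and Klf15 has the lowest values, down to -3.48 at T90. Of the values with an asterisk, Klf13 at T90 and Sp1 at T60 change sign when total counts are the only scaling.

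Genes known to act on KLF genes or on other early genes were next compared with T0. This list (kinases of the ERK5 and ERK cascades, MEF2, SRF and its partners, FOXO and CREB) had 20 of 23 genes listed. At T15 edgeR, DESeq2 and limma-voom called 0 of the 20, and 1 had an unadjusted edgeR p under 0.05. At T30 edgeR called 1 higher and 1 lower, where 3.64% and 1.3% of all genes were called. At T60 9 were higher and 3 lower, with a list median of 0.19 beside -0.03 for all genes, where 27.9% and 28.3% of all genes were called. At T120 11 were higher and 8 lower, with a median of 0.48 beside -0.08, where 37.3% and 39.5% of all genes were called. With total counts as the only scaling the split turned, with 5 higher and 7 lower at T60 and 6 and 9 at T120. Srf, the serum response factor, rose by 1.80 ± 0.11 at T60, and Mef2d by 1.05 ± 0.08 (edgeR adjusted p = 3.47e-11 and 1.84e-09). At T120 Elk4, an SRF partner, rose by 1.57 and Mef2a by 1.396 (edgeR adjusted p = 1.57e-10 and 8.77e-09). Foxo3 and Foxo1, which are restrained by growth factor signalling, fell by 1.98 and 1.35 at T120 (edgeR adjusted p = 1.39e-08 and 1.03e-08). At T30 the higher gene was Srf, at 1.16 (edgeR adjusted p = 7.89e-07), and the lower one Foxo3, at -0.79 (edgeR adjusted p = 0.0308), and 0 were called lower without the 5 libraries of highest background. At T60 the largest falls were those of Mkl1, an SRF coactivator gene (-0.48), and Foxo3 (-0.47), with edgeR adjusted p = 0.023 and 0.0436. The Mkl1 call was lost without T0 library A or C or T60 library A or D (adjusted p from 0.0507 to 0.091) and with background subtracted (-0.14, adjusted p = 0.613), and the Foxo3 call without T0 library B or D or T60 library A, C or D (adjusted p from 0.074 to 0.152).

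The cofactors, ligases and reported targets of KLF proteins were followed in the same way. All 12 cofactor genes of the list were listed. At T15 and at T30 edgeR, DESeq2 and limma-voom called 0 of 12, with 0 and 1 at an unadjusted edgeR p under 0.05. At T60 7 were higher and 1 lower, with a list median of 0.36 beside -0.03 for all genes, and at T120 6 were higher and 2 lower. The shares of all genes called higher and lower were 27.9% and 28.3% at T60, and 37.3% and 39.5% at T120. With background subtracted 3 were higher and 1 lower at T60, and with total counts as the only scaling 2 and 1 at T60 and 3 and 3 at T120. Ep300, which encodes p300, rose by 0.74 at T60 and 0.89 at T120 (edgeR adjusted p = 0.00032 and 2.01e-05). Sin3a rose by 0.66 at T60 and Crebbp, which encodes CBP, by 0.92 at T120 (edgeR adjusted p = 1.48e-05 and 2.22e-06). Hdac3, a histone deacetylase gene, fell by 0.44 at T60 (edgeR adjusted p = 0.0051). At T120 Kat2b and Hdac3 fell by 0.41 and 0.29 (edgeR adjusted p = 0.0175 and 0.0405). Kat2b did not pass without T0 library B or T120 library A or D (adjusted p from 0.0537 to 0.0846), and Hdac3 without T0 library B or C or T120 library A or C (adjusted p from 0.0669 to 0.241). Of 9 ubiquitin ligase genes reported to act on KLF proteins, 7 were listed, and 1 was higher and 4 lower at T60, and 1 higher and 2 lower at T120, where 28.3% and 39.5% of all genes were called lower. At T60 1 was lower without the 5 libraries of highest background or with background subtracted, and 6 with total counts as the only scaling, which gave 5 lower at T120. Smurf1 rose by 1.28 at T120 (edgeR adjusted p = 3.37e-10). Fbxo32, the atrogin-1 gene, fell by 0.90 at T60, and Fzr1 by 0.47 (edgeR adjusted p = 0.000314 and 0.0107), although Fzr1 had -0.18 with background subtracted (adjusted p = 0.798). Itch fell by 0.30 at T120 (edgeR adjusted p = 0.00669, and 0.0574 without T0 library B). Btrc fell by 1.81 at T120 (edgeR adjusted p = 1.42e-08), and had -0.37 (edgeR adjusted p = 0.819) after background subtraction.

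Genes reported elsewhere as regulated by at least 1 of Klf2, Klf4, Klf6 and Klf10, in any tissue, had 15 of 26 listed. At T15 1 was higher, Atf3, a stress-induced transcription factor, with a log2 fold change of 2.65 (edgeR adjusted p = 0.000103). At T60 9 were higher and 1 lower, with a median of 0.58 beside -0.03 for all genes. At T120 10 were higher and 2 lower, with a median of 1.29 beside -0.08. The shares of all genes called higher and lower were 27.9% and 28.3% at T60, and 37.3% and 39.5% at T120. With total counts as the only scaling 8 were higher and 3 lower at T60, and 9 and 4 at T120. Atf3 rose by 6.21 ± 0.38 at T60 and Cdkn1a, the p21 cell cycle inhibitor, by 4.12 ± 0.31 (edgeR adjusted p = 3.38e-11 and 7.46e-10). Txnip, a thioredoxin inhibitor, fell by 2.85 at T60, and Ccnd1, cyclin D1, by 1.14 at T120 (edgeR adjusted p = 8.45e-07 and 0.00241). This list holds activated and repressed genes, so its counts have no single direction to be read against.

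Klf10 is known as an early gene of the TGF-beta pathway, so that pathway was set beside it. Of 20 genes 19 were listed. At T60 15 were higher and 0 lower, with a median of 0.99 beside -0.03 for all genes, while Klf10 had 0.20. Of all genes, 27.9% were called higher and 28.3% lower at T60, and 37.3% and 39.5% at T120. At T120 14 were higher and 2 lower, with a median of 1.30 beside -0.08. With total counts as the only scaling 13 were higher and 2 lower at T60, and 12 and 4 at T120. Skil, a feedback inhibitor, rose by 3.07 ± 0.19 at T60, and Tgif1, a corepressor gene, by 3.51 ± 0.14 at T120 (edgeR adjusted p = 2.89e-11 and 1.12e-13). The receptor gene Tgfbr3 fell by 0.59 at T120 (edgeR adjusted p = 0.0036), and Ltbp1, which tethers latent TGF-beta, by 0.36 (edgeR adjusted p = 0.0203, but 0.136 without T0 library B and 0.0739 without T120 library C). Whether these genes and Klf10 differed was not tested.

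Across the 22 libraries, the 3 genes whose log2 CPM had the highest Pearson correlation with Klf4 were Ppp1r15a, a phosphatase subunit of the integrated stress response (0.988), Atf3 (0.968) and Ier3 (0.967). For Klf6 they were Mcl1, a survival factor of the BCL2 family (0.977), Des, which encodes desmin (0.975), and the protease gene Adamts1 (0.971). For Klf10 they were Chrna1, a subunit of the muscle acetylcholine receptor (0.895), Col6a2, a collagen VI chain (0.874), and Lrrn1 (0.869). All these values were computed over the same libraries and therefore share time point, library and scaling. By Spearman correlation, 1 of the 3 genes was shared for Klf4, 0 for Klf6 and 2 for Klf10. Ppp1r15a averaged 1201 ± 194 CPM at T60, against 57.7 ± 4.46 CPM at T0. Chrna1 averaged 44.9 ± 8.91 CPM at T120, against 60.9 ± 23.3 CPM at T0. Klf4 and Klf6 correlated at 0.889 over all libraries and at 0.409 once each time point's mean was taken away. Klf4 and Klf10 gave -0.108 and -0.403, and Klf6 and Klf10 -0.223 and 0.0529.

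Klf4 is also expressed by endothelial cells, so their markers were set beside it. Of 10 endothelial markers 5 were listed, and none of the 5 was at 0 in any library. Their summed level ran from 124 to 181 CPM at T60, where Klf4 was highest, against 149 to 239.7 CPM at T0, and edgeR called 0 of 5 higher and 1 lower. That was Flt1, at -1.17 (edgeR adjusted p = 0.0381), with 0.94 after background subtraction, and the call was lost without T0 library A or C or T60 library A, B or C (adjusted p from 0.0704 to 0.137). With total counts as the only scaling 3 of 5 were lower at T60 and 4 of 5 higher at T120. At T120 the sum ran from 321 to 599 CPM and 5 of 5 were higher, among them Cdh5 by 2.40 and Kdr by 1.70 (edgeR adjusted p = 0.00022 and 0.00834). Of all genes, 27.9% were called higher and 28.3% lower at T60, and 37.3% and 39.5% at T120. In libraries A to D at T120 the sums were 556, 417, 599 and 321 CPM, beside Klf4 levels of 570.2, 242, 359 and 192 CPM. B and D were the lower pair in both, and also for Klf6 (312 and 349 CPM). The highest sum was in library C and the highest Klf4 level in library A. At T60 library D had the highest sum (181 CPM) and the lowest Klf4 level (404 CPM). Of 7 smooth muscle and pericyte markers 5 were listed and none of these was at 0, and their sum ran from 452 to 640.1 CPM at T120, against 185 to 294 CPM at T0, with 2 of 5 called higher at T120, Rgs5 by 3.36 and Myh11 by 2.21 (edgeR adjusted p = 4.11e-08 and 0.00104). Before that, the sum ran from 341 to 422 CPM at T30 and from 284 to 486 CPM at T60, and 2 of 5 were called higher at T60, Tagln by 0.88 and Acta2 by 0.85 (edgeR adjusted p = 0.000653 and 0.0196), against 1 of 5 with background subtracted, without the 5 libraries of highest background or with total counts only. These 5 markers had a median log2 fold change against T0 of -0.68 at T60, although 0 were called lower, and of 0.67 at T120. The medians of all genes were -0.03 and -0.08. From T30 to T60 edgeR called 0 of the 5 higher and 3 lower, where 26.5% and 24.5% of all genes were called. The part of endothelial, smooth muscle and pericyte cells in the levels of the members was not tested.

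The authors' deposited table gives log2 fold changes for the same genes. In the authors' deposited table Klf4 had 2.48 at T15 and 4.73 at T60 against T0, Klf6 had 0.84 and 2.13, and Klf10 had 0.05 and 0.28. For T120 against T0 the authors' deposited table gives 3.95 for Klf4, 2.58 for Klf6 and -0.67 for Klf10, with adjusted p-values of 3.17e-58, 3.54e-46 and 0.0304. For T30 against T15, the authors' deposited table gives Klf4 0.74 with an adjusted p of 0.05003.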

How the data were processed

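Bulk RNA-seq of mouse muscle stem cells was analysed from 1 table. Per the file headers, it holds the deposited raw counts per Ensembl gene for 22 libraries, and the authors' log2 fold changes with adjusted p-values (p-values as deposited). Per the submitters' processing notes, DESeq2 1.18.1, featureCounts 1.4.5-p3 and cutadapt 1.11 were used somewhere in the series, with build mm10. The kit is directional per the labels' protocols, but no source used here says whether counting used strand. The table lists 8059 genes with a mean normalized count of at least 98.4, so weakly expressed genes are outside it, and column totals are not sequencing depth. Of 15 labelled samples, 9 were not analysed here, and 22 columns of normalized values were not used.

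Counts were tested with edgeR 4.0.16 (R 4.3.3): TMM factors, filterByExpr, 1 quasi-likelihood fit of all libraries with time point as factor, and Benjamini-Hochberg adjustment over all genes, with calls at 0.05. The common biological coefficient of variation was 0.192. The fit was tested on simulated data. Each standard error is the fold change (log2) divided by the root of its F statistic. Libraries of a time point all differed beyond sampling noise. Count ratios of 2 members (prior count 0.5) used exact permutation tests. Levels per kb used merged exon lengths of GENCODE vM21, matched for 8049 IDs. Background subtraction removed each library's density over the 7 listed long genes, times exon length, from every gene. Library sizes and TMM factors were then computed anew for the edgeR fit. Correlations used log2 CPM with a prior count of 2. Alternatives were DESeq2 1.42.0, limma-voom (limma 3.58.1), other scalings, no filter, 2 time points only, a replicate block, and leaving out each library. Leaving out the 5 libraries of highest background, and the T120 over T60 contrast, were added after seeing the data. The members and lists were chosen with earlier results of these data known. Named genes were drawn from the members, all listed KLF and SP genes, and, per other list at T60 and T120, up to 2 called genes with the largest rise and 2 with the largest fall, plus the 3 genes most correlated with each member. List genes called at T15 or T30 were named after their values were seen. One gene that this rule names is not reported here.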

Additional observations from a re-analysis of the deposited data

How the results depend on the processing

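Against T0, Klf4 kept its direction and its call at all 5 later times under every alternative run, and so did Klf6 from T30 on. With a fit of 2 time points only, Klf6 at T15 had 0.86 and did not pass, nor did it without the 5 libraries of highest background (0.72). Leave-one-out values ran from 0.66 to 1.02 for Klf6 at T15 and from -1.004 to -0.46 for Klf10 at T120, which also did not pass after background subtraction (-0.88). Background subtraction moved steps between times: T30 over T15 passed for Klf4 (1.46) and Klf6 (0.74), T60 over T30 did not (0.58 and 0.37), nor did T120 over T60 for Klf10 (-0.96). Klf6 at T60 over T30 did not pass without those 5 libraries (0.70). Klf4 at T120 over T90 ran from -0.97 to -0.43 when 1 library was left out. Klf4 at T120 over T60 did not pass with DESeq2 size factors (-0.67), DESeq2 (-0.67), limma-voom (-0.80), 2 time points only (-0.69) or background subtraction (-0.65), and ran from -1.06 to -0.50 when 1 library was left out. Klf6 there had 0.43 with limma-voom and 0.38 to 0.54 when 1 library was left out. The joint test passed for Klf10 with total counts only (adjusted p = 0.0129), DESeq2 (adjusted p = 0.0388) and without the 5 libraries (edgeR adjusted p = 0.0168), and ran from 0.0163 to 0.199 when 1 library was left out. The causes were not tested.

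Sign changes were listed only where the main fit or the alternative called the gene. Such signs turned with total counts only for Sp1 at T60 (-0.047), Klf13 at T90 (-0.028) and Sp3 at T90 (-0.33) and T120 (-0.36), and with background subtraction for Flt1 at T60 (0.94). Klf10 at T60 against T0, called under neither scaling, went from 0.20 with TMM to -0.11 with total counts only. Sp3 was not called at T90 and T120 with TMM. The 9 ratio differences kept their direction under the other prior count, background subtraction and without the 5 libraries, and none passed after adjustment. Without the 5 libraries none could have passed, because too few libraries are left at T0 and T15. The Klf4 to Klf10 difference at T120 over T60 was 0.16, and -0.10 without T120 library A.

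Counts of called genes moved with several choices. After background subtraction they were 707 for T30 over T0, 2897 for T60 over T0, 597 for T30 over T15, 2524 for T60 over T30, 1006 for T90 over T60, 622 for T120 over T90 and 3082 for T120 over T60, where the counts as deposited gave 398, 4532, 394, 4110, 2440, 1847 and 4863. Without the 5 libraries they were 147 for T30 over T0, 69 for T30 over T15 and 1617 for T60 over T30. With 2 time points only they were 98 for T30 over T15 and 793 for T120 over T90. For T30 over T15, DESeq2 gave 647 and limma-voom 180. When 1 library was left out they ran from 244 to 564 for T30 over T0, from 106 to 1136 for T30 over T15, from 1621 to 2479 for T90 over T60 and from 907 to 2092 for T120 over T90.

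Deviations of libraries with the same letter had a mean correlation of 0.0451, over 0.1 in 26 of 51 pairs. For different letters the mean was -0.0158, with 45 of 150 pairs over 0.1. The labels do not say that letters pair libraries, and the main fit did not pair them. With the letter as a replicate block, Klf4 at T15 had 2.47 and Klf6 0.82, both called (edgeR adjusted p = 4.44e-06 and 0.0491), so Klf6 passed only narrowly. No member call changed, and 53 genes were called at T15 against T0 where 54 were without the block. The block gave Klf4 at T60 against T0 a standard error of 0.27, where the main fit gave 0.36. Klf4 at T120 over T60 had -0.80 with the block (edgeR adjusted p = 0.00556). Dixon's test on the 3 members at the 4 times with 4 libraries, 12 groups in all, found 0 outlying libraries, and T30 and T90, with 3 libraries each, were not tested.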
